A study of Rattus norvegicus with 12 samples.

Results

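RNA-seq of the nucleus accumbens shell was compared between rats housed in an enriched environment (EE) for 21 days of forced abstinence from cocaine (EE21D, n = 3) and rats given the same housing for 1 day (EE1D, n = 3). These 6 rats were chosen by their labels alone, out of 12 in the series, and the isolated rats (IC1D and IC21D) were left out of the contrast. All of the rats were adult male Sprague-Dawley animals that had self-administered cocaine and that were killed right after a cue reactivity test of 1 h, so both groups share the drug history and the test, and a drug-naive group was not analysed here. EE meant group cages with a running wheel, tubes and toys, entered only when abstinence began, so length of abstinence and length of enrichment changed together and cannot be told apart in this contrast. The labels give neither ages nor shared cages. The p-values below measure the spread between single rats.

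The nucleus accumbens shell is the ventral striatal region in which dopamine input and glutamate input converge on medium spiny neurons, and it is known for its part in the motivation to seek drugs. Cue-driven cocaine seeking grows stronger over weeks of abstinence, which is called incubation, and enriched housing is known to weaken it. The comparison of EE21D with EE1D asks which transcripts differ with time in abstinence when the animals live in EE throughout.

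The values are counts per Ensembl rat transcript, so each one stands for an isoform, and a read shared by isoforms was assigned by StringTie, the quantification program, which makes single isoform counts uncertain. The files do not pair transcript identifiers with gene names and no table used here does so. Most transcripts are therefore named by their rank, and gene groups and cell type markers of the accumbens shell were not analysed here. Because a punch holds a mixture of cells, fewer cells of a type and less RNA per cell cannot be told apart. Total counts ran from 11725831 to 24833968 in EE1D and from 21632038 to 26975339 in EE21D. The 8 largest transcripts took 54.7% to 72.9% of the counts in EE1D and 54.3% to 61.3% in EE21D, which left 5309091 to 8356816 counts for all other transcripts in EE1D and 9692196 to 11364580 in EE21D.

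Of 41064 listed transcripts, 27181 had at least 1 count in these 6 rats and 17245 had 10 or more counts in at least 3 of them. The latter are the transcripts kept and tested. Of these, 12846 (74.5%) had 10 or more counts in all 6 rats and are called steadily counted below. Another 2327 (13.5%) had 0 counts in at least 1 rat. The share with a 0 was 40.4% among transcripts that averaged under 1 CPM (counts per 1000000 counts of the library after TMM scaling in edgeR), 13.7% from 1 to 10 CPM, 4.56% from 10 to 100 CPM and 1.28% above that.

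The rats of a group were not clearly more alike than rats of different groups. Across the kept transcripts the Spearman correlation of a pair of rats was 0.869 to 0.894 within EE21D, 0.825 to 0.863 within EE1D and 0.814 to 0.893 between the groups. The closest pair across groups, EE1D rat A12 and EE21D rat A13 (0.893), was nearly as close as the closest pair within EE21D, A13 and A1 (0.894). A median of 1704 transcripts differed by more than 4-fold between rats of different groups, against 1505 between EE21D rats and 2163 between EE1D rats. The first principal component of log2 CPM held 31.6% of the variance and set EE1D rat A16 apart from the other 5 rats, and the second held 21.9% and ran from EE1D rat A12 to EE21D rat A14. Neither component separated the abstinence lengths.

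**Figure D1:**
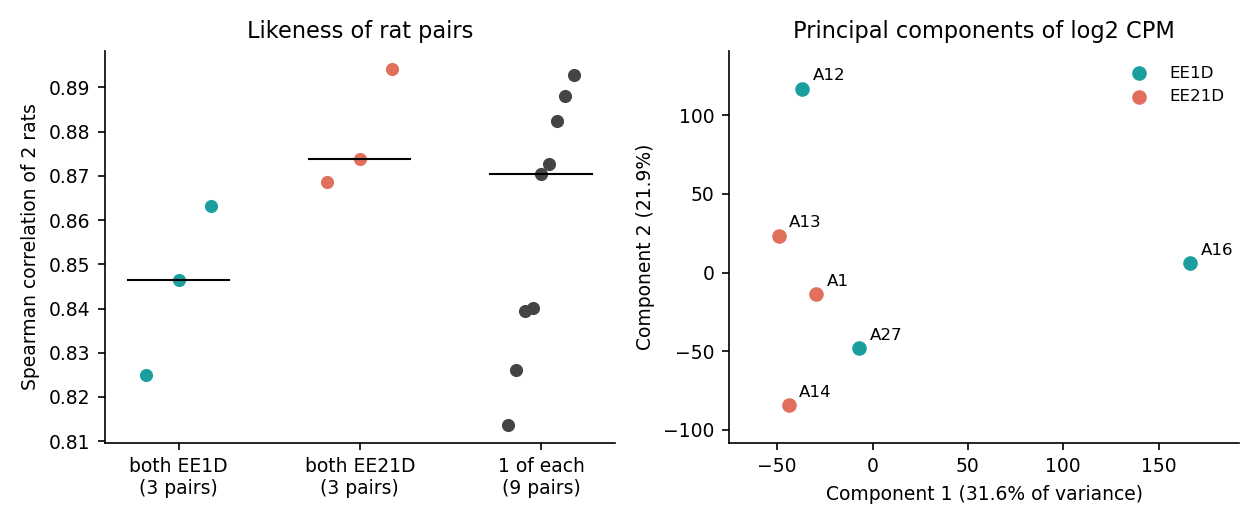
Left, the Spearman correlation of log2 CPM over 17245 transcripts for each pair of rats (points), by whether the pair shares a group, with the median as a line. Right, the first and second principal components of the same values for each rat. Pairs from different groups span 0.814 to 0.893, which covers the EE1D pairs and nearly all of the EE21D range, and rat A16 lies far from the others on component 1.

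No transcript passed the threshold between EE21D and EE1D. By the quasi-likelihood test of edgeR, the number with an adjusted p-value under 0.05 was 0 of 17245 (0% called), and the smallest adjusted p-value, 0.0501, was shared by 6 transcripts. At an unadjusted p-value under 0.05 there were 479 (2.78%), of which 262 (1.52%) were higher in EE21D and 217 (1.26%) lower, where uniform p-values would give about 862. At an adjusted p-value under 0.1, 19 transcripts were counted, 15 of them higher in EE21D (0.087%) and 4 lower (0.0232%), and this number was 53 without A12, 9 without A16, 20 without A27, 4 without A13 (1 higher and 3 lower), 1 without A14 and 0 without A1. The unadjusted number was 770 without A12 (476 higher and 294 lower) and 404 without A1 (192 higher and 212 lower). DESeq2's Wald test called 92 transcripts at an adjusted p-value under 0.05 (0.533%), 56 higher and 36 lower, and these held all 19 with an edgeR adjusted p-value under 0.1. Of the 92, 33 were at 0 throughout EE1D or throughout EE21D, 32 were steadily counted, and 85 had groups that did not overlap. Over all 17245 transcripts, every EE21D rat was above every EE1D rat for 816 (4.73%) and below for 654 (3.79%). The 92 were chosen by p-value from these same counts, so their lack of overlap is no separate result. limma voom called 0 transcripts, with 573 at an unadjusted p-value under 0.05. Leaving out 1 rat moved the number of edgeR calls from 0 to 21 without A12 (19 higher), 3 without A13 and 1 each without A16 and A27.

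The typical transcript hardly differed. The median log2 fold change of EE21D over EE1D was 0.01 with quartiles of -0.25 and 0.28, and 1016 transcripts were above 1 and 810 below -1 on the log2 scale. The spread between rats was large beside this. The biological coefficient of variation was 0.624, and the median SD of log2 CPM between rats was 0.454 in EE1D and 0.377 in EE21D. Among the 12846 steadily counted transcripts the median log2 fold change was 0.00 (quartiles -0.22 and 0.21), with 172 above 1 and 266 below -1.

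**Figure D2:**
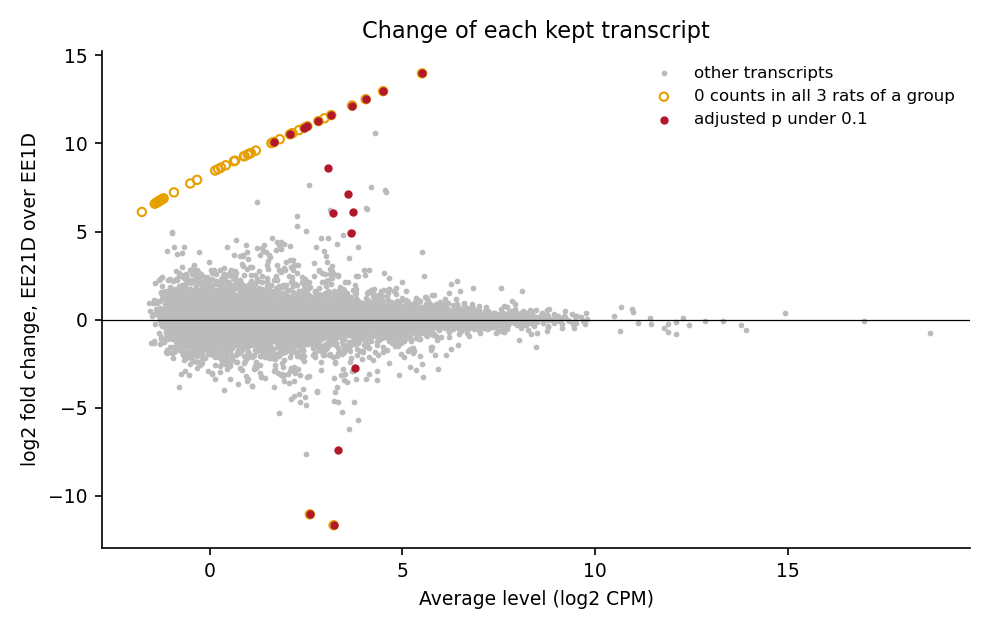
The log2 fold change of EE21D over EE1D from edgeR for each of 17245 transcripts, against its average level in log2 CPM. Red points are the 19 with an adjusted p-value under 0.1 and open circles the 45 with 0 counts in all 3 rats of a group, which form a line because their fitted fold change is set by their level. Most open circles lie above 0, 43 of 45.

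The balance of directions differed between the steadily counted transcripts and the rest, a division that is not independent of the change. A transcript can miss 10 counts in some rat because it is low in one group, and EE1D had the smaller libraries, so the split of directions among the rest is a description only. Of the steadily counted transcripts, 133 were higher and 156 lower at an unadjusted p-value under 0.05, and of the other 4399 kept transcripts 129 were higher and 61 lower. Of the 19 with an adjusted p-value under 0.1, 2 were steadily counted, 1 higher and 1 lower, and 17 were not, 14 higher and 3 lower. Every EE21D rat was above every EE1D rat for 816 of 17245 transcripts (4.73%) and below for 654 (3.79%). Among the steadily counted transcripts the same counts were 486 (3.78%) and 518 (4.03%).

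Missing counts were more frequent in EE1D. Among the kept transcripts, 1023 had 0 counts in just 1 EE1D rat and in no EE21D rat, against 330 with 0 counts in just 1 EE21D rat and in no EE1D rat. With 0 counts in 2 of the 3 rats these numbers were 283 and 50, and with 0 counts in all 3 rats they were 43 and 2. Those with 0 counts in all 3 rats of a group could only be kept through the other group. Those with 0 counts in 1 or 2 rats needed at least 1 rat of the other group to be kept. The split between the groups, and not the presence of differences, is what was measured. The depth moved with it. EE1D rats had effective library sizes (total counts times the TMM factor) of 14068253 for A12, 15919681 for A16 and 22179799 for A27, against 25281249 to 29713211 in EE21D. Of the kept transcripts, 664, 1233 and 624 were at 0 in these EE1D rats, against 262, 408 and 447 in EE21D rats A13, A14 and A1. The part of depth in the split was not tested. Leaving out any 1 rat loosens the criterion and raised both numbers. They became 134 and 17 without A12, 84 and 16 without A16, 123 and 12 without A27, 77 and 18 without A13, 88 and 11 without A14 and 116 and 15 without A1.

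**Figure D3:**
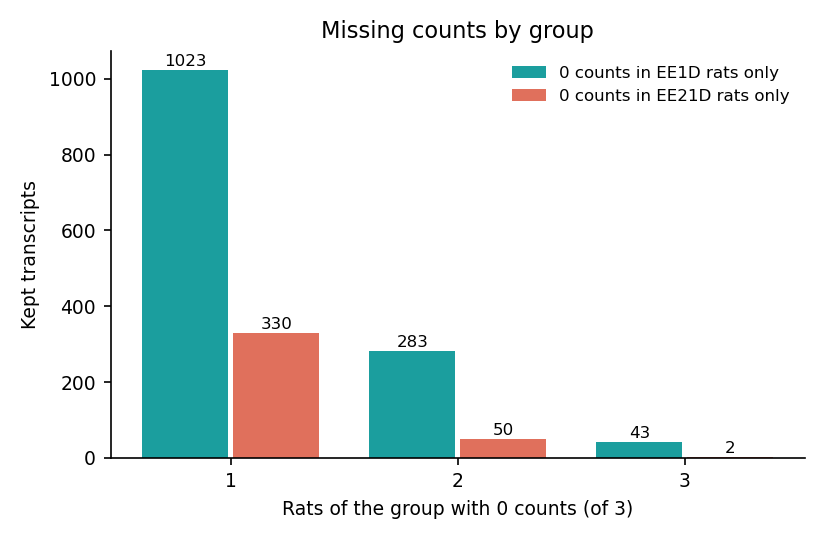
Bars give the number of kept transcripts with 0 counts in 1, 2 or all 3 rats of a group and counts in every rat of the other group, for EE1D and for EE21D. The EE1D bars are higher at each position, with 1023 against 330, 283 against 50 and 43 against 2.

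The transcripts with the smallest p-values among those higher in EE21D were absent from EE1D altogether. ENSRNOT00000065075, the first of them, had 2390, 1917 and 3006 counts in EE21D rats A13, A14 and A1 and 0 in each EE1D rat. The EE21D rats averaged 91.0 ± 24.4 CPM (SD, n = 3), which was at least 509-fold above EE1D against a floor of 3 counts per library, which is 0.179 CPM on average in EE1D (adjusted p = 0.0501 in the edgeR quasi-likelihood fit). All 3 EE21D rats were high and the groups did not overlap, so the exact permutation test gave p = 0.1, two-sided, the lowest value open to groups of this size. In isolated rats the transcript had 2130, 2380 and 1103 counts in A2, A20 and A9 and was at 0 in A23, A24 and A3, so both isolated groups contained rats with and without it. This transcript and the ranked ones below were picked by p-value from these same counts. Those at 0 in all rats of one group could be kept only through the other group. The p-values and the lack of overlap of these ranked transcripts are therefore no separate support.

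ENSRNOT00000086177, the second, was counted 505, 448 and 467 times in EE21D and 0 times in any EE1D rat. The level of 17.6 ± 0.790 CPM (SD, n = 3) varied little between EE21D rats and was at least 98.2-fold above the EE1D floor (adjusted p = 0.0501 from edgeR). The same isolated rats as for the first transcript had it, with 430 counts in A2, 517 in A20 and 393 in A9, and the same 3 were at 0.

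The next 2 transcripts were also at 0 in EE1D. The first of these had 1721, 1008 and 972 counts in EE21D, and in isolated rats 791 to 2701 counts in 4 and 0 in A23 and A24. The next had 594, 741 and 719 counts in EE21D and 0 in each of the 6 isolated rats as well as in EE1D. It was at 25.7 ± 4.90 CPM (SD, n = 3) in EE21D, at least 143-fold above the EE1D floor (adjusted p = 0.0501 from edgeR). Against the other 3 this transcript stood out by being found in EE21D alone.

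The transcripts ranked 5 to 7 were counted in all 6 rats but were close to absent in EE1D. The fifth had 5, 1 and 2 counts in EE1D and 684, 619 and 614 in EE21D, a log2 fold change of 7.15 (SE 0.64, adjusted p = 0.0603 from edgeR). The sixth, the only steadily counted one of the 10, had 13, 17 and 11 counts in EE1D and 864, 401 and 734 in EE21D. Its level went from 0.829 ± 0.298 to 24.5 ± 7.86 CPM (SD, n = 3 each), a log2 fold change of 4.89 (SE 0.46, adjusted p = 0.0604 from edgeR). Here no EE1D rat came near the EE21D range. The seventh had 7, 8 and 3 counts in EE1D and 596, 835 and 624 in EE21D. Those ranked 8 to 10 were again at 0 in EE1D, with 263 to 312, 675 to 1231 and 246 to 487 counts in EE21D (adjusted p = 0.0604, 0.0715 and 0.0715 from edgeR). In isolated housing each of these 6 transcripts was high in some rats and low or at 0 in others.

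Among transcripts lower in EE21D, the one with the smallest p-value in the whole comparison was ENSRNOT00000042230. It had 314, 152 and 621 counts in EE1D rats A12, A16 and A27 and 3 in each EE21D rat. The level was 20 ± 9.45 CPM in EE1D and 0.112 ± 0.00944 CPM in EE21D (SD, n = 3 each), with an adjusted p of 0.0501 from edgeR. The counts summed over each group, relative to the summed effective libraries, had a ratio of 187 with a counting interval of 98.4 to 411 (95%, exact). This interval covers counting error only and leaves out the spread between rats. The isolated rats were divided, with 275 to 396 counts in A2, A23, A24 and A3 and 1 and 9 in A9 and A20.

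ENSRNOT00000041389 had 263, 342 and 337 counts in EE1D and 0 in every EE21D rat. At 18.5 ± 3.15 CPM (SD, n = 3) in EE1D it was at least 165-fold lower in EE21D (adjusted p = 0.0501 from edgeR), and 4 isolated rats had 227 to 831 counts while A23 and A24 had 0. The third had 154, 215 and 257 counts in EE1D and 0 in EE21D, at least 108-fold lower (adjusted p = 0.0553 from edgeR), and all 6 isolated rats had it, with 11 to 219 counts. These were the 2 transcripts found in EE1D and in no EE21D rat.

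The remaining 7 of the 10 lower transcripts had counts in every enriched rat and smaller differences. Rank 4 among the lower ones had 285, 436 and 533 counts in EE1D and 114, 68 and 101 in EE21D, and its level of 23.9 ± 3.57 CPM in EE1D compared with 3.48 ± 0.754 CPM in EE21D (SD, n = 3 each). This was a log2 fold change of -2.78 (SE 0.27, adjusted p = 0.0604 from edgeR). Ranks 5 to 10 had log2 fold changes of -5.32 to -1.99 and adjusted p-values of 0.164 to 0.403 from edgeR. For each of the 10 lower and each of the 10 higher transcripts the groups did not overlap. Over all 17245 kept transcripts, every EE21D rat was above every EE1D rat for 816 (4.73%) and below for 654 (3.79%). The 10 on each side were picked by p-value from these same counts, so their lack of overlap was close to fixed in advance. The adjusted p-values of these 20 transcripts depended on the fit, at 0.426 to 0.988 with limma voom and 0.431 to 1.00 with all 12 rats in the edgeR fit, against at most 8.33e-05 with DESeq2.

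**Figure D4:**
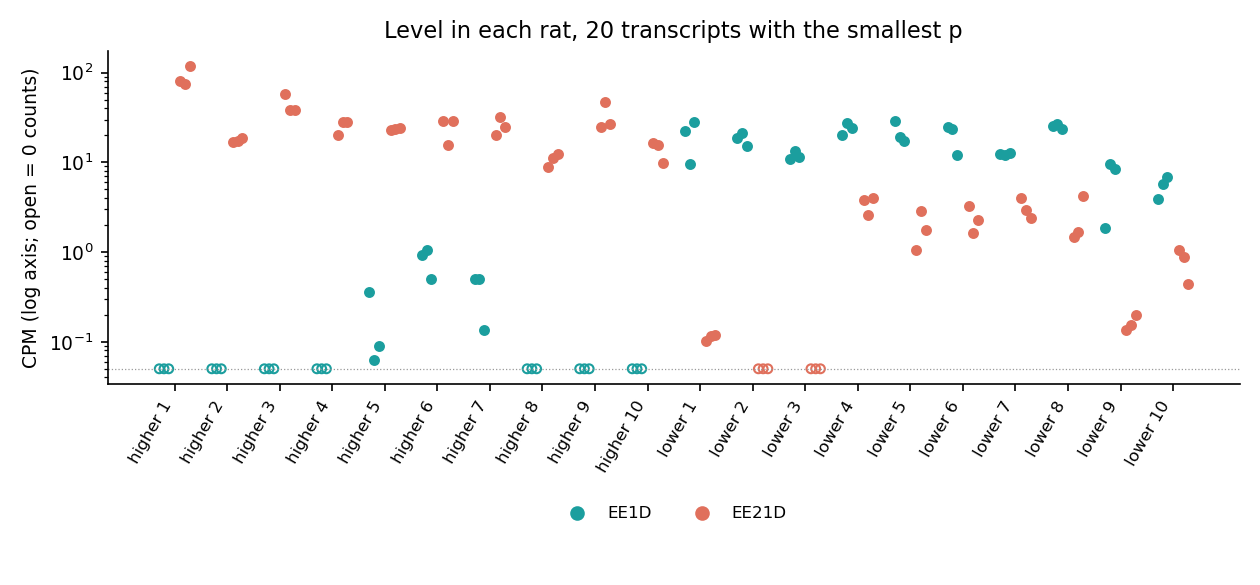
The level of 20 transcripts in each enriched rat, in CPM on a log axis, for the 10 with the smallest p-values on either side (higher or lower in EE21D). Open points on the dotted line mark 0 counts. Of the 10 higher transcripts 7 are at 0 in all EE1D rats, and of the 10 lower transcripts 2 are at 0 in all EE21D rats.

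Within the steadily counted transcripts, the 5 higher and 5 lower ones with the smallest p-values are given next. They are extremes by p-value and not a typical size of difference. After the sixth-ranked transcript above, the second higher one had 70, 133 and 100 counts in EE1D and 1206, 3941 and 1555 in EE21D. Its level was 5.95 ± 2.1 CPM in EE1D and 84.6 ± 59.1 CPM in EE21D (SD, n = 3 each), a log2 fold change of 3.83 (SE 0.60, adjusted p = 0.308 from edgeR). Rat A14 was the highest by far, although A13 and A1 were also above every EE1D rat.

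Ranks 3 and 4 among the higher ones had log2 fold changes of 2.32 (SE 0.45) and 2.83 (SE 0.60). The fifth had a smaller difference, at 12.0 ± 1.02 CPM in EE1D and 22.0 ± 3.27 CPM in EE21D (SD, n = 3 each), a log2 fold change of 0.88 (SE 0.20, adjusted p = 0.907 from edgeR). The order is by p-value and not by size, as 172 steadily counted transcripts were above 1 on the log2 scale. The 5 lower ones ran from -3.52 to -1.99. Of these, rank 4 had the tightest EE1D values, 12.4, 12.0 and 12.6 CPM in A12, A16 and A27, against 3.97, 2.96 and 2.37 CPM in A13, A14 and A1 (adjusted p = 0.191 from edgeR).

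The 43 transcripts found in every EE21D rat and in no EE1D rat differed widely in level. Their mean level in EE21D ran from 0.384 to 91.0 CPM with a median of 3.52 CPM. The lowest of the 3 EE21D counts ran from 10 to 1917 with a median of 52, and 14 transcripts had 100 or more counts in all 3. With 100 or more counts required, the 2 transcripts found in EE1D alone both remained. An adjusted p-value under 0.1 from edgeR was reached by 10 of the 43, and one under 0.05 from DESeq2 by 31. Over all 17245 kept transcripts these numbers were 19 and 92 (0.533% for DESeq2). The 43 were chosen for their difference in the same counts, so a larger share among them is no separate result.

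In isolated housing these 43 transcripts were unevenly present. Of them, 4 had 0 counts in all 6 isolated rats, and none had 10 or more counts in all 6. The number with 10 or more counts was 22 in A2, 28 in A20 and 12 in A23 (IC1D), and 19 in A9, 5 in A24 and 12 in A3 (IC21D). All 3 IC1D rats had 10 or more counts for 7 transcripts, and all 3 IC21D rats for 0. The presence or absence over the 6 isolated rats took 22 different patterns, the most common of them shared by 4 transcripts, so the 43 did not switch together.

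**Figure D5:**
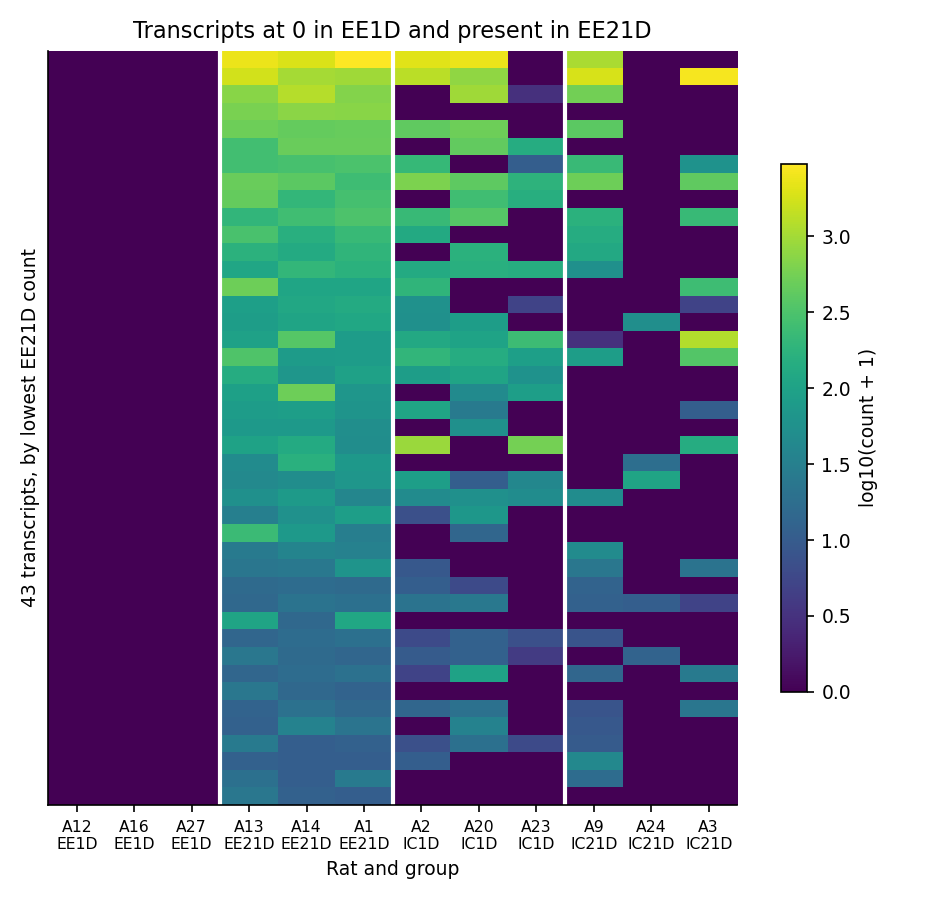
Counts of the 43 transcripts with 0 counts in every EE1D rat and 10 or more in every EE21D rat, as log10(count + 1), in all 12 rats. Rows are ordered by the lowest EE21D count. The isolated rats carry mixed patterns, from 28 transcripts with 10 or more counts in A20 to 5 in A24.

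In the isolated rats, which are other animals, the split went the other way. There, 3 transcripts had 10 or more counts in every IC21D rat and 0 in every IC1D rat, and 29 the reverse. The depth also lay the other way. Counts outside the 8 largest transcripts were 6965003 to 11057041 in IC1D and 4714969 to 9416608 in IC21D. The part of depth in this split was not tested either. IC21D rat A24 was at 0 for 4696 of the kept transcripts, against 542 to 1035 in the other isolated rats. Without it the numbers were 23 and 44, under a looser criterion because fewer IC21D rats were required. The difference between these splits was not tested as such. It was tested transcript by transcript, as the change with abstinence in EE minus that in IC. With edgeR on all 12 rats, 2 of 17245 transcripts passed (0.0116%), with 783 at an unadjusted p-value under 0.05, and DESeq2 called 96. Both edgeR calls were picked after their values were seen, as they are the only ones. Leaving out 1 rat gave from 0 calls (without A2, A20, A13 or A1) to 19 (without A9).

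ENSRNOT00000027258 had 143, 66 and 97 counts in EE21D, 0 in each EE1D rat, 86, 107 and 58 in IC1D and 0 in each IC21D rat (adjusted p = 0.0362 from edgeR for the difference). It is one of the 43, and the groups stood in opposite order in the 2 housing conditions. ENSRNOT00000072527 had 43, 37 and 60 counts in EE1D and 86, 62 and 74 in EE21D, a log2 fold change of 0.02 within EE. Its call (adjusted p = 0.0362 from edgeR) came with the isolated rats, which had 48, 74 and 71 counts in IC1D and 0 in IC21D. Of the 17245 kept transcripts, 1250 had every IC21D rat below every IC1D rat and 555 had every IC21D rat above, beside the 816 and 654 with EE21D above and below. Among these, 65 were above in EE and below in IC, and 29 the reverse, and no departure from these backgrounds was tested. Both housing conditions had the same non-overlapping order for 15 higher and 21 lower transcripts. All of these counts for IC include IC21D rat A24, which was at 0 for 4696 of the kept transcripts. A rat at 0 cannot lie above another, so the split of directions in IC is a description only. The part of A24 in it was not tested.

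Both transcripts that the study names by identifier varied more within the enriched groups than between them. Camk2d encodes the delta subunit of calcium/calmodulin-dependent protein kinase II, which relays calcium signals. Its transcript ENSRNOT00000016026 had 34, 229 and 0 counts in EE1D rats A12, A16 and A27 and 42, 291 and 90 in EE21D rats A13, A14 and A1. The level was 5.60 ± 7.70 CPM in EE1D and 5.39 ± 5.15 CPM in EE21D (SD, n = 3 each), and the groups overlapped. The log2 fold change was -0.05 (SE 1.67, adjusted p = 1.00 from edgeR), and the exact permutation test gave p = 0.7, two-sided.

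Eif4e2 encodes a cap-binding protein related to the translation initiation factor eIF4E that represses translation. Its transcript ENSRNOT00000026646 had 46, 0 and 58 counts in EE1D and 39, 37 and 89 in EE21D. The level was 1.96 ± 1.73 CPM in EE1D and 2.09 ± 1.24 CPM in EE21D (SD, n = 3 each), a log2 fold change of 0.09 (SE 1.3, adjusted p = 1.00 from edgeR; exact permutation test, two-sided p = 0.8). With standard errors of this size, a change of several-fold in either direction was not detectable for these 2 transcripts.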

How the data were processed

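RNA from nucleus accumbens shell punches was amplified with a Nugen Ovation kit, and 1 library was sequenced for each rat. The authors aligned reads with HISAT2 2.1.0 to the Ensembl release 92 rat genome and assembled, merged and quantified transcripts with StringTie 1.3.3.1, and they deposited 1 file per rat of whole-number counts per transcript without normalization. How coverage was turned into counts is not given in the sources used here. Groups came from the sample titles. Counts of the 6 enriched rats were tested in R 4.3.3 with edgeR 4.0.16 (TMM, glmQLFit, glmQLFTest, Benjamini-Hochberg, threshold 0.05) over transcripts with 10 or more counts in at least 3 rats, and the scripts were tested on simulated data. The study used DESeq2, and DESeq2 1.42.0 and limma 3.58.1 voom were run here as alternatives. The difference between housing conditions used all 12 rats. The SE of a log2 fold change is its size divided by the square root of F. Floors (3 counts) and intervals cover counting error only. Transcripts named were, on each side, the 10 with the smallest p-values, the 5 among steadily counted ones, those found in one group alone (at most 5), and those the study identifies, with identifiers printed for 2 a side. The members and lists were chosen with earlier results of these data known. Sums per gene, gene lists and markers need gene names and were not run.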

Additional observations from a re-analysis of the deposited data

Results flagged for a closer look

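The change with abstinence in EE minus that in IC, as a difference of log2 fold changes from edgeR on all 12 rats, passed the test for 2 transcripts. For ENSRNOT00000027258 it was 18.6, a fitted value that depends on how 0 counts are treated, since EE1D and IC21D were both at 0 (adjusted p = 0.0362). For ENSRNOT00000072527 it was 8.99 with IC21D at 0 (adjusted p = 0.0362). Of the 17245 kept transcripts, 65 had every 21-day rat above every 1-day rat in EE and below in IC, and 29 were the reverse. A further transcript, from these 65, did not pass and is given because it had been listed above. It was ranked 4 among the higher steadily counted ones and had 10, 49 and 31 counts in EE1D, 246, 415 and 320 in EE21D, 244, 339 and 222 in IC1D and 29, 0 and 32 in IC21D, so every 21-day rat was above every 1-day rat in EE and below in IC. Its difference was 6.43 (SE 1.37), with an adjusted p of 0.980 from edgeR over all transcripts. The 0 among its IC21D counts was that of A24, which was at 0 for 4696 of the kept transcripts.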

How the results depend on the processing

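The count of 0 transcripts for EE21D against EE1D was also found with limma voom, with RLE or upper-quartile scaling, with TMM without the 8 largest transcripts, without the filter, with 10 or more counts in all 6 rats and with all 12 rats in the fit. It became 92 with DESeq2 and 19 at an adjusted p-value under 0.1. Leaving out 1 rat gave 0 to 21 calls, with 21 without A12 (19 higher), 3 without A13, 1 each without A16 and A27 and 0 without A14 or A1. With DESeq2 the same fits gave 224 higher and 73 lower without A12 and 53 higher and 72 lower without A1, so the lean turned with the rats left out. Alternatives for unadjusted p-values and for transcripts found in a single group were added after seeing the data. At an unadjusted p-value under 0.05 there were 784 transcripts without the filter and 251 with all 12 rats, and with 10 or more counts in all 6 rats 171 were higher and 228 lower. The count found in EE21D alone was 14 with 100 or more counts required and 77 to 134 without 1 rat, and that in EE1D alone 11 to 18. The difference between housing conditions gave 96 calls with DESeq2 and 0 to 19 with edgeR without 1 rat: 0 without A2, A20, A13 or A1, 1 without A14 or A16, 3 without A12 or A27, 4 without A23 or A24, 9 without A3 and 19 without A9. ENSRNOT00000027258 passed in 5 of these 12 fits and ENSRNOT00000072527 in 3.

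Of the 26 transcripts named for the contrast, all but ENSRNOT00000016026 and ENSRNOT00000026646 kept their direction in every alternative that included them. Those that kept it were picked from these same rats by p-value or by absence from one group, and their groups did not overlap. Their direction was therefore close to fixed in advance, and keeping it is no support for them. ENSRNOT00000016026 was at 2.95 (log2) with voom and ran from -1.17 to 2.18 without 1 rat, with 0.40, 2.18 and 0.17 without A13, A16 and A1. ENSRNOT00000026646 was at 1.31 with voom and ran from -0.52 to 0.65 without 1 rat, with -0.50 and -0.52 without A16 and A1. The causes were not tested. No paired analysis was possible because the labels give no replicate numbers shared between groups. With 3 rats a group and these depths, transcripts at a few counts in EE1D cannot be told from absent ones.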
